A study of Mus musculus with 72 samples.

Results

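The genes described here encode 4 families of enzymes that finish the chemical handling of drugs, hormones, bile acids and dietary compounds. They were chosen by symbol alone: UDP-glucuronosyltransferases (UGT, symbols starting Ugt1 to Ugt3), sulfotransferases (SULT, Sult1 to Sult5), cytosolic and mitochondrial glutathione transferases (GST, classes a, k, m, p and t) and carboxylesterases (CES, Ces1 to Ces5). Of 20659 genes with a symbol of their own on the array, 59 met the rule, namely 10 UGT, 14 SULT, 16 GST and 19 CES genes. Another 12 probe sets of these families carried several symbols, among them the Ugt1a locus, and were not used.

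UGT enzymes sit in the membrane of the endoplasmic reticulum and join glucuronic acid from UDP-glucuronic acid to steroids, bile acids and drugs. SULT enzymes transfer sulfate from the donor PAPS to phenols, steroids and bile acids in the cytosol, and GST enzymes join glutathione to reactive electrophiles. Carboxylesterases are serine hydrolases that split esters and amides of drugs, and several mouse members also hydrolyse triacylglycerol and other lipids. Liver and the lining of the small intestine are major sites of these enzymes. In mouse, the clock-controlled PAR bZIP factors DBP, TEF and HLF are known regulators of detoxification genes.

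The arrays came from 2 tissues, liver and intestine (labelled IEC), of male C57BL/6J mice that ate a ketogenic diet or chow freely for 4 weeks from the age of 8 weeks under 12 h light and 12 h dark. Each tissue and diet was sampled at 6 zeitgeber times (ZT, counted in hours from lights on), namely ZT0, ZT4, ZT8, ZT12, ZT16 and ZT20, with 3 arrays each, 72 arrays in 24 groups. The protocol text of all samples also describes 7 days of fructose gavage at 4 g/kg and 30% sucrose in the drinking water, and does not say whether the mice of these arrays received either. The segment of intestine is not given, and the labels do not tie each array to an animal of its own. A p-value here therefore reflects only how far these arrays vary, which may be technical.

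All 10 hepatocyte markers were above the filter on low values in liver, and all 10 enterocyte markers in intestine. In intestine 0 of 4 endothelial markers passed, and 5 of 10 hepatocyte markers did. Array medians lay between 105.0 and 119.5 in liver and between 106.7 and 121.2 in intestine, as linear intensity. A few arrays stood apart. Measured as the root mean square log2 difference from the other arrays of its group, ketogenic intestine ZT0 replicate 1 lay at 0.38, ZT20 replicate 27 at 0.28 and ZT8 replicate 26 at 0.28, the 3 highest of the 36 intestine arrays. In chow liver, the clock gene Nr1d1 read 1144 at ZT8 replicate 12 against 3593 and 3410 in the other ZT8 arrays, and 3367 at ZT12 replicate 17 against 1226 and 1013 in the other ZT12 arrays. Those 2 arrays therefore went against their ZT labels for this gene. Dbp read 2692 at ZT12 replicate 17 against 1282 and 1328, and the clock gene Arntl 58.2 against 204 and 167. At ZT8 replicate 12 Dbp read 1360 against 1865 and 2496, while Arntl, at 143, lay between 210 and 82.1. Liver counts of members rhythmic on each diet, and calls of a rhythm difference, are given with and without these arrays. Amplitudes, peaks and the count rhythmic on both diets are given with them only.

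The promoters of the Ugt2b genes are shown because 5 of these 7 neighbours on chromosome 5 passed the test of a diet difference in daily rhythm in liver. RefSeq promoters (GRCm38.p6) were found for 50 of the 59 genes. The 7 lines give the 100 bases before each start site, on the strand of the gene, with capitals for matches to the HNF1 palindrome (GTTA, any 4 bases, TTAAC) and to AGGTCA, the half-site of many nuclear receptors.
Ugt2b37: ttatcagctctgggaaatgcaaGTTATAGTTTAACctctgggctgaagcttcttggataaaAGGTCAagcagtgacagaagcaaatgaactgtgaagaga
Ugt2b38: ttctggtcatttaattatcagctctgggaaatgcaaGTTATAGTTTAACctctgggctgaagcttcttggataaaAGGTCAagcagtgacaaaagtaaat
Ugt2b5: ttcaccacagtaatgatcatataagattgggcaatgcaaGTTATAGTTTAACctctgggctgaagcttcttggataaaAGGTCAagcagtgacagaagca
Ugt2b36: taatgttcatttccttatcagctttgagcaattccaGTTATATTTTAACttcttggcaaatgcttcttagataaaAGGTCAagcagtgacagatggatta
Ugt2b35: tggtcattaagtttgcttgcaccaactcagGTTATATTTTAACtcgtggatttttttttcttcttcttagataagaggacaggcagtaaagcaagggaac
Ugt2b1: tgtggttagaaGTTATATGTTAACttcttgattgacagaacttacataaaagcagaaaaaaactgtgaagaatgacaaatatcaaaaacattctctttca
Ugt2b34: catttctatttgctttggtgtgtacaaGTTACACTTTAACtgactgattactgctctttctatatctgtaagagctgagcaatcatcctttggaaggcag

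These windows are chr5:87254789-87254888, chr5:87424204-87424303, chr5:87140341-87140440, chr5:87092556-87092655, chr5:86926504-86926603 and chr5:86906938-86907037 on the minus strand and chr5:87000760-87000859 on the plus strand. HNF1 proteins are liver and gut factors known to bind proximal promoters of rat and human UGT2B genes. The palindrome, searched on both strands in the 250 bases before and 50 after each start, was found in 7 of 7 Ugt2b promoters and in Ugt3a1, at 61 to 89 bases before the Ugt2b start sites. It occurred in 60 of 27025 genes with a promoter in the table (0.222%), and in 0 of the 13 SULT, 14 GST and 14 CES genes. AGGTCA occurred in 5 of the 7 Ugt2b promoters and in 18.1% of all genes. The windows were between 40.2% (Ugt2b5 and Ugt2b1) and 80.8% (Ugt2b38 and Ugt2b5) identical to each other. A match is a match of letters and no measured binding site.

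A second shared motif lay in the Ces1 genes, a row of neighbours on chromosome 8. TTANGTAA, the letters of the D-box bound by PAR bZIP factors, was found in 5 of the 6 Ces1 genes with a promoter entry and in 2.72% of all genes. The 40-base windows around it are given with the match in capitals.
Ces1a: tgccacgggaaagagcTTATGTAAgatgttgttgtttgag
Ces1b: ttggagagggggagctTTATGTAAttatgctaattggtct
Ces1c: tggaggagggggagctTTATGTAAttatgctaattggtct
Ces1e: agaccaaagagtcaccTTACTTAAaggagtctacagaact
Ces1g: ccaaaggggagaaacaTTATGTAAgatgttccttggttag

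They lie on the minus strand at chr8:93048367-93048406, chr8:93080001-93080040, chr8:93131354-93131393, chr8:93229752-93229791 and chr8:93337418-93337457. In liver, Ces1b, Ces1c, Ces1e and Ces1g did not pass the daily rhythm test on either diet, and Ces1a passed on the ketogenic diet only. Whether the D-box letters bear on rhythm was not tested. Outside Ces1, these letters were in the promoters of Ugt2b1 and Sult1a1. The clock E-box CACGTG was in 0 of the 50 genes with an entry and in 8.09% of all genes. The core letters of the antioxidant response element, TGACNNNGC, were in Gsta3, Gstm5 and Gstm7 and in 3781 of the 27025 genes. All motifs were searched in the same 300 bases on both strands.

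Most of these genes were liver genes. Over both diets and all times, 44 of the 59 read higher in liver and 11 higher in intestine, and 4 did not pass the test, where 40.7% and 41.9% of all 20659 genes did so (82.5% either way) (limma on log2 of intensity plus 16, Benjamini-Hochberg adjusted p under 0.05). All 10 UGT genes were higher in liver, as were 15 of 16 GST, 12 of 19 CES and 7 of 14 SULT genes. The members higher in intestine were 6 CES genes (Ces2b, Ces2c, Ces2d-ps, Ces2e, Ces2f and Ces5a), 4 SULT genes (Sult1b1, Sult1d1, Sult1e1 and Sult2b1) and Gstm5. Some calls rest on low values. Sult1c1, Sult2a3, Sult3a2, Sult1e1, Ces1h and Gstt4 lay below the filter on low values in both tissues. Sult1c1 had medians of 17.5 in liver and 15.2 in intestine, Sult3a2 7.62 and 5.72, and Sult1e1 17.7 and 27.3. Liver minus intestine differences are on the log2(intensity + 16) scale, and 7.81% of all values lie under the added 16, so large folds of such genes are understated.

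The liver side was led by genes near background in intestine. Ugt2b1, a steroid and drug glucuronosyltransferase, read 3666 to 6521 (median 4806) over the 36 liver arrays and 0.0209 to 92.7 (median 4.34) over the 36 intestine arrays, a difference of 7.76 ± 0.08 (SE, adjusted p = 8.31e-61). Ces3b, a lipid-handling carboxylesterase, had medians of 5581 in liver and 11.8 in intestine, and Sult2a8, a bile acid sulfotransferase of mouse liver, 3932 in liver and 3.02 in intestine. The groups did not overlap for any of these genes. Ugt2b34 was the exception among UGT genes, with medians of 5590 in liver and 5292 in intestine, overlapping ranges and a difference of only 0.14 ± 0.02 (adjusted p = 1.12e-09).

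The intestine side was led by Sult2b1, which sulfates cholesterol. It read 0.00258 to 16.2 in liver and 1574 to 2566 in intestine, a difference of -6.37 ± 0.04 (adjusted p = 3.10e-71). Sult1b1, which sulfates thyroid hormones, had medians of 469 in liver and 2454 in intestine with no overlap. Within CES, the genes split by subfamily. Ces1a to Ces1h were all higher in liver, with differences from 0.10 for Ces1h, which is near background, to 6.39 for Ces1c. Ces2c, an acylglycerol hydrolase, read 188 to 762 in liver and 1328 to 2923 in intestine (-1.94 ± 0.07). Ces2e had medians of 1965 in liver and 4625 in intestine, and the neighbouring transcribed pseudogene Ces2d-ps had 1462 in liver and 3991 in intestine, again with no overlap. The highest mean intensities in liver belonged to Ugt2b34, Ugt2b36 and Ugt2b1, to Sult2a8, Sult1d1 and Sult1a1, to Gstp1, Gsta3 and Gstm1 and to Ces3a, Ces1c and Ces3b. In intestine they belonged to Ugt2b34, Ugt2a3 and Ugt2b35, to Sult1d1, Sult1b1 and Sult2b1, to Gstp1, Gstm3 and Gstk1 and to Ces2e, Ces2d-ps and Ces2c. Probe sets differ in brightness, so this order is not one of RNA levels between genes. Ces2g went the other way in the same subfamily, with medians of 872 in liver and 233 in intestine.

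**Figure D1:**
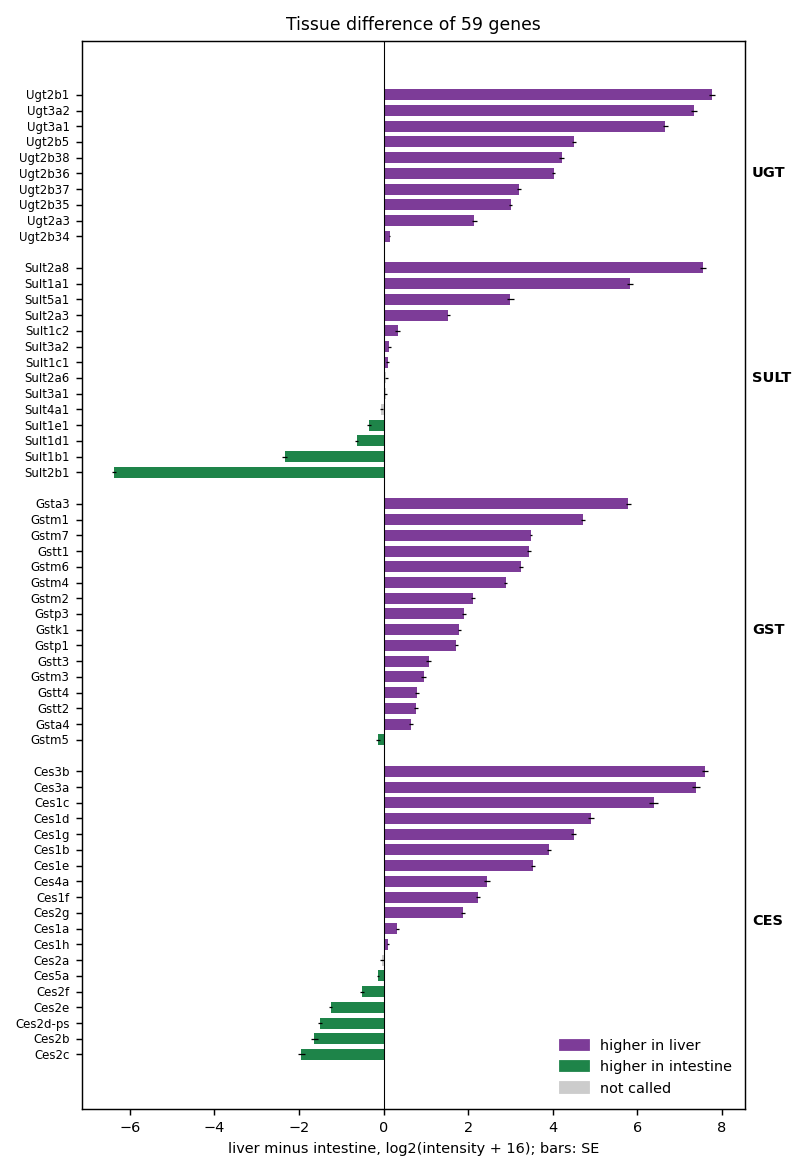
Difference in level between liver and intestine of the 59 genes by family, on the log2(intensity + 16) scale, with bars from 0 and SE lines. All 10 UGT genes lie on the liver side, while 6 CES genes, 4 SULT genes and Gstm5 passed the test on the intestine side. Ces2a and Sult4a1 also lie slightly on the intestine side and did not pass.

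For the diet and rhythm tests a gene had to exceed the 40th percentile of mean log2 level in its tissue, which left 12395 genes per tissue. In liver 48 of the 59 members passed (10 UGT, 6 SULT, 15 GST, 17 CES) and in intestine 38 (6 UGT, 4 SULT, 15 GST, 13 CES). Ces1h, Gstt4, Sult1c1, Sult1e1, Sult2a3, Sult2a6, Sult3a1, Sult3a2 and Sult4a1 passed in neither tissue. Sult2b1 and Ces5a passed in intestine but not in liver. Ugt2b1, Ugt2b38, Ugt3a1, Ugt3a2, Sult1a1, Sult2a8, Sult5a1, Ces1b, Ces1c, Ces3a, Ces3b and Ces4a passed in liver but not in intestine. Members of one family share sequence, so probe sets of close neighbours such as the Ugt2b, Gstm or Ces2 genes may share signal, which was not tested.

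In liver, calls went up in most UGT and CES genes that passed and down in most GST genes that passed. Of the 48 members tested, 18 rose and 10 fell on the ketogenic diet and 20 did not pass, where 19.2% of all genes tested rose and 29.1% fell (48.3% either way). UGT genes rose (5 of 10) or did not pass (5), and CES genes rose more often than they fell (7 up, 1 down, 9 not passing). GST genes went mostly down (3 up, 7 down, 5 not passing), and SULT genes went both ways (3 up, 2 down, 1 not passing). The median difference of all members was 0.04, beside -0.03 over all genes. The rise or fall was at least 1.5-fold for 6 members, 3 up and 3 down, where 0.92% of all genes rose and 0.992% fell by that much (1.91% either way). Of all calls in liver, 39.8% were rises as deposited, 49.9% after quantile normalization and 35% after median centring, and members then counted 17 up and 10 down, and 17 up and 11 down.

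Among the glucuronosyltransferases, Ugt3a1 changed most. The human enzyme of this name uses N-acetylglucosamine as its sugar. It read 2731 to 3732 (median 3026) on ketogenic diet and 1627 to 2436 (median 2112) on chow, and the 18 arrays of each diet did not overlap. The difference was 0.58 ± 0.04 (adjusted p = 5.00e-13). Its neighbour Ugt3a2 had medians of 4852 on ketogenic diet and 4238 on chow (0.19 ± 0.03, adjusted p = 3.44e-06), and Ugt2a3 had 3452 on ketogenic diet and 3035 on chow (0.17 ± 0.05, adjusted p = 0.00282), both with overlapping arrays. Ugt2b36 and Ugt2b5 rose by 0.11 and 0.15. The call for Ugt2b5 (adjusted p = 0.0408) was lost in 26 of 45 alternative settings.

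Among the sulfotransferases the extremes pointed in opposite directions. Sult5a1 read 268 to 480 (median 352) on ketogenic diet and 119 to 341 (median 189) on chow, a rise of 0.79 ± 0.09 (adjusted p = 2.95e-08), with 11 ketogenic arrays above every chow array. Sult1c2 read 41.8 to 174 (median 103) on ketogenic diet and 130 to 370 (median 213) on chow, and fell by 1.07 on the log2 scale (SE 0.08, adjusted p = 8.60e-12). At each of the 6 times all 3 ketogenic arrays lay below all 3 chow arrays. Sult1b1 rose by 0.46 ± 0.08 (adjusted p = 2.48e-05) and Sult2a8 by 0.27 ± 0.04 (adjusted p = 1.18e-05). Sult1d1, a catecholamine sulfotransferase of mouse, fell by 0.28 (SE 0.05, adjusted p = 1.67e-05).

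Of the glutathione transferases, 3 rose and 7 fell. Gstt2 read 727 to 1438 (median 940) on ketogenic diet and 306 to 1001 (median 561) on chow, a rise of 0.81 ± 0.08 (adjusted p = 2.85e-09). Gsta4, which conjugates the lipid peroxidation product 4-hydroxynonenal, read 929 to 1421 (median 1168) on ketogenic diet and 509 to 1082 (median 820) on chow, a rise of 0.51 ± 0.07 (adjusted p = 3.41e-07). Gstk1, the enzyme of mitochondria and peroxisomes, read 4901 to 5617 on ketogenic diet and 3706 to 4816 on chow with no overlap, a rise of 0.34 ± 0.02 (adjusted p = 2.22e-12). The 7 falls were Gstp3 and 6 of the 7 Gstm genes, which stand in a row on chromosome 3. Gstp3 read 411 to 735 (median 547) on ketogenic diet and 654 to 1226 (median 972) on chow (-0.79 ± 0.07, adjusted p = 5.10e-10). Gstm2 read 492 to 864 (median 596) on ketogenic diet and 659 to 1266 (median 921) on chow (-0.59 ± 0.08, adjusted p = 3.88e-07), and Gstm6 had medians of 1517 on ketogenic diet and 2088 on chow (-0.42 ± 0.05). Gstm4 alone of the Gstm genes did not pass, at -0.03 ± 0.05. Gsta3 (0.04), Gstp1 (-0.01), Gstt1 (0.07) and Gstt3 (0.12) did not pass either. Gstm3 has a second probe set, which read -1.21 in liver where the one used here read -0.14, so the size of its fall in liver is not settled.

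Among the carboxylesterases, Ces4a read 537 to 1392 (median 808) on ketogenic diet and 214 to 1050 on chow, a rise of 0.86 ± 0.14 (adjusted p = 8.88e-06). The ranges overlapped, and 1 ketogenic array exceeded every chow array. Ces1b read 1357 to 2428 (median 1695) on ketogenic diet and 783 to 1465 (median 1141) on chow, a rise of 0.58 ± 0.07 (adjusted p = 8.47e-08), and at each of the 6 times its ketogenic arrays lay above its chow arrays. Ces1a (0.22), Ces1e (0.20), Ces1g (0.18), Ces3a (0.11) and Ces2a (0.09) also rose. Ces2g was the only member of the family that fell, with 658 to 883 (median 759) on ketogenic diet and 777 to 1264 (median 1068) on chow (-0.48 ± 0.04, adjusted p = 9.87e-10). The other Ces2 genes tested, Ces2b to Ces2f with Ces2d-ps, did not pass, with differences between -0.25 for Ces2c and -0.0040 for Ces2f.

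In these liver samples the 10 hepatocyte markers moved little (2 lower, at most 0.09). Of 5 adipocyte markers on the array 3 passed the filter, and these 3 were higher on the ketogenic diet. The summed intensity of the 5 was 872 to 4008 on ketogenic diet and 342 to 642 on chow. Cidec and Cfd rose by 2.78 and 2.81, and the third marker tested by only 0.13. Of 5 goblet cell markers on the array only Tff3 passed the filter in liver, and it fell by 3.34. So few markers do not identify a cell type. Their part in the results above was not tested. In bulk samples, fewer cells of a type and less RNA per cell cannot be told apart.

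In intestine more members fell than rose. Of 38 members tested, 5 rose, 21 fell and 12 did not pass, where 19.6% of all genes rose and 31.3% fell (50.9% either way). UGT genes fell in 5 of 6 cases and SULT genes in 4 of 4. GST genes fell in 9 of 15 and rose in 2, and CES genes rose in 3 and fell in 3 of 13. The median of the members was -0.14, beside -0.02 over all genes. A fall of at least 1.5-fold was seen for 7 members and a rise of that size for 0, where 0.823% of all genes fell and 0.476% rose by that much (1.3% either way). Of all calls in intestine, 38.5% were rises as deposited, 50.8% after quantile normalization and 30.7% after median centring, and members then counted 6 up and 19 down, and 4 up and 22 down.

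Ugt2a3, the UGT2A enzyme of gut and liver, led the glucuronosyltransferases. It read 262 to 1030 (median 509) on ketogenic diet and 684 to 1514 (median 1005) on chow, and 14 ketogenic arrays lay below every chow array (-0.91 ± 0.12, adjusted p = 3.59e-07). Ugt2b36 had medians of 298 on ketogenic diet and 370 on chow (-0.40 ± 0.06, adjusted p = 1.25e-05), and Ugt2b35 had 325 on ketogenic diet and 427 on chow (-0.36 ± 0.06, adjusted p = 7.42e-06). Ugt2b34 and Ugt2b5 fell by 0.25 and 0.24. Ugt2b34 read 3995 to 5490 on ketogenic diet and 4862 to 6454 on chow (-0.25 ± 0.03, adjusted p = 7.18e-08), and at each of the 6 times its ketogenic arrays lay below its chow arrays.

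The 4 sulfotransferases tested all fell. Sult1c2 read 42.1 to 124 (median 92.9) on ketogenic diet and 90.3 to 244 (median 157) on chow (-0.63 ± 0.09, adjusted p = 1.25e-06). Sult1d1 had medians of 3202 on ketogenic diet and 3986 on chow (-0.33 ± 0.04, adjusted p = 8.51e-07), and Sult1b1 had 2175 on ketogenic diet and 2691 on chow (-0.27 ± 0.05, adjusted p = 0.000121). In each the arrays of the diets overlapped. Sult2b1 fell by 0.13 (SE 0.03, adjusted p = 0.0023).

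Of the glutathione transferases, Gstm3 read 1051 to 2535 (median 1570) on ketogenic diet and 2018 to 5349 (median 3358) on chow (-0.99 ± 0.11, adjusted p = 2.81e-08), and its second probe set gave a fall of nearly the same size. Gstt1, a theta class enzyme that acts on small halogenated compounds, read 214 to 461 (median 316) on ketogenic diet and 437 to 867 (median 581) on chow, and 17 of 18 ketogenic arrays lay below every chow array (-0.89 ± 0.07, adjusted p = 2.22e-11). Gstm6 had medians of 127 on ketogenic diet and 218 on chow (-0.65 ± 0.10, adjusted p = 6.64e-06). At each of the 6 times the ketogenic arrays of Gstm3 and Gstt1 lay below the chow arrays, and for Gstm6 this held at 2 times. Gstp3 (0.18 ± 0.04, adjusted p = 0.0014) and Gstt2 (0.15 ± 0.04, adjusted p = 0.00189) rose.

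Of the carboxylesterases, Ces1d, a triacylglycerol hydrolase of liver and fat, read 27.1 to 276 (median 121) on ketogenic diet and 103 to 515 (median 297) on chow (-1.11 ± 0.12, adjusted p = 1.07e-08). The ranges overlapped, and at 5 of the 6 times its ketogenic arrays lay below its chow arrays. Ces2a read 612 to 1539 (median 996) on ketogenic diet and 1433 to 2516 (median 1967) on chow (-0.97 ± 0.08, adjusted p = 6.40e-11), with 17 of 18 ketogenic arrays below every chow array. Ces1g fell by 0.36 (SE 0.10, adjusted p = 0.00365). Ces1f rose, with 881 to 1302 (median 1176) on ketogenic diet and 460 to 1082 (median 803) on chow (0.52 ± 0.09, adjusted p = 1.86e-05), and 13 ketogenic arrays lay above every chow array. Ces2c (0.18 ± 0.07, adjusted p = 0.0384) and Ces5a (0.15 ± 0.04, adjusted p = 0.00188) rose slightly. The call for Ces2c was lost in 15 of 45 alternative settings, and the second probe set of Ces5a read -0.01.

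**Figure D2:**
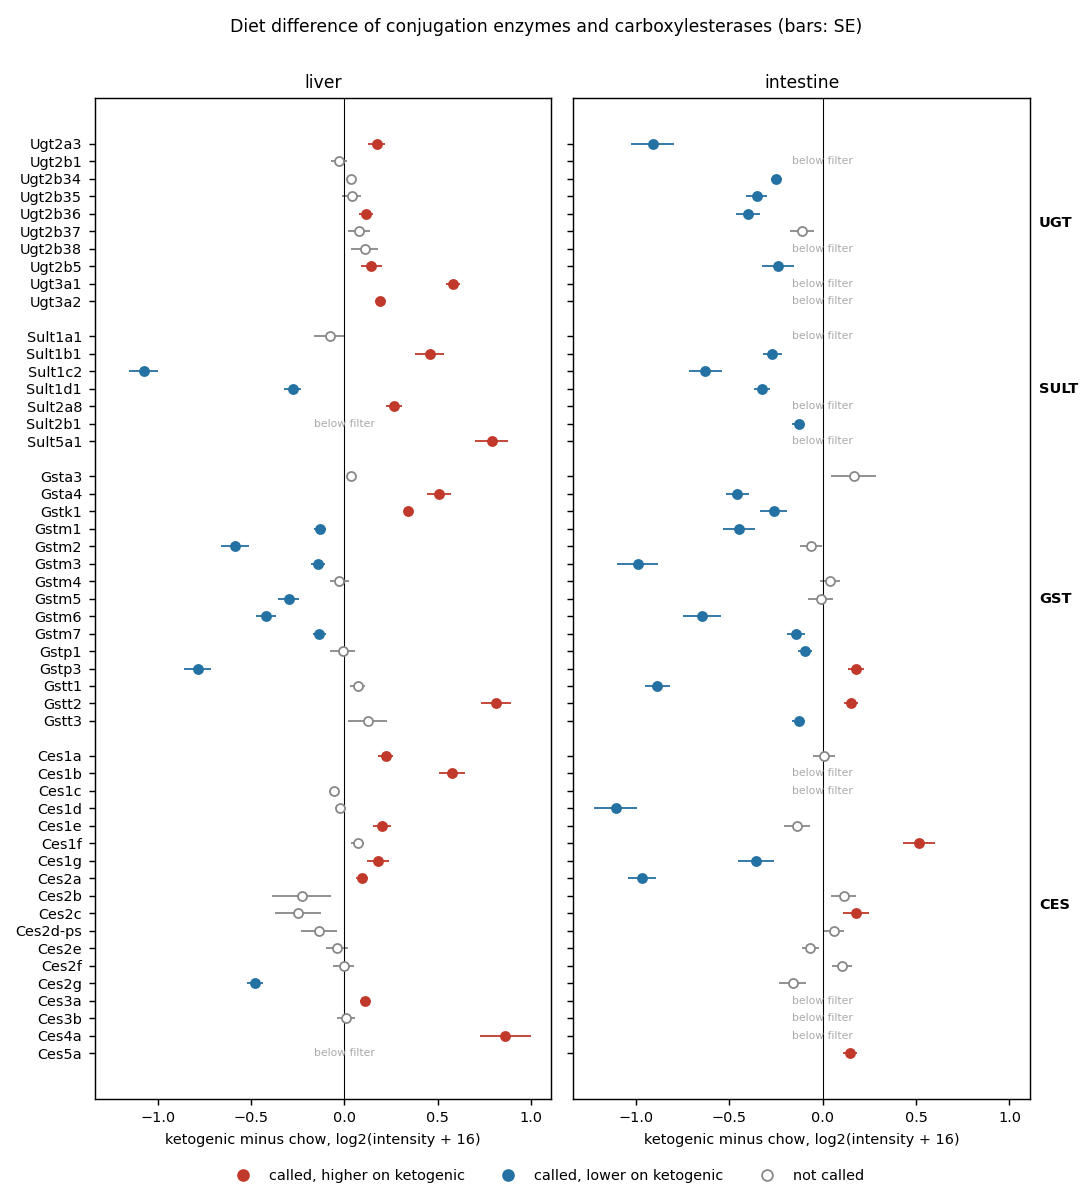
Ketogenic minus chow difference of each member in liver (left) and intestine (right), log2(intensity + 16), with SE lines. Filled points passed the test, red for rises and blue for falls. In intestine 21 of 38 points are blue, and in liver 18 of 48 are red.

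Cell type markers of the intestine samples moved as well. Of 10 enterocyte markers 2 were higher and 4 lower on the ketogenic diet, among them lactase (Lct, -1.06), sucrase-isomaltase (Sis, -0.39) and Apoa4 (0.52), and their summed intensity was 56068 to 74257 on ketogenic diet and 60498 to 73348 on chow. Of 4 immune markers tested 3 were lower, with Ptprc at -0.69, and the sum over the 8 immune markers was 454 to 907 on ketogenic diet and 592 to 963 on chow. The hepatocyte marker Alb was higher by 1.22. Their part in the results was not tested. Leaving out the 3 ketogenic intestine arrays that stood apart gave 4 members up and 23 down in intestine.

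A test of the diet difference between tissues, over the 36 members past the filter in both, called 24, where 31.7% of 10811 genes were called. In 17 the liver difference was the higher one and in 7 the intestine difference, where 17.4% and 14.3% of all genes were called so. All 5 UGT genes called were on the liver side, and so were 6 of 9 GST and 5 of 8 CES genes. In 8 members the diet raised the liver level and lowered the intestine level, each past its own test (Ces1g, Ces2a, Gsta4, Gstk1, Sult1b1, Ugt2a3, Ugt2b36 and Ugt2b5). Gstp3 alone did the reverse. In 6 members both tissues fell (Gstm1, Gstm3, Gstm6, Gstm7, Sult1c2 and Sult1d1), and Gstt2 rose in both. The shares of all genes with such pairs of calls were not counted.

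Gsta4 moved in opposite directions, with 0.51 in liver and -0.46 in intestine, a difference of 0.97 ± 0.09 (adjusted p = 1.35e-12). For Ces2a the values were 0.09 in liver and -0.97 in intestine (1.06 ± 0.09, adjusted p = 5.50e-15), and for Gstt1 they were 0.07 in liver and -0.89 in intestine (0.96 ± 0.08, adjusted p = 1.18e-14). For both genes the larger change lay in intestine. For Ces1d the liver value was -0.02 and the intestine value -1.11 (1.09 ± 0.12, adjusted p = 2.46e-10). On the other side, Gstp3 gave -0.79 in liver and 0.18 in intestine (-0.96 ± 0.08, adjusted p = 9.52e-14), Gstm2 gave -0.59 in liver and -0.06 in intestine (-0.52 ± 0.10, adjusted p = 2.75e-05), Ces1f gave 0.07 in liver and 0.52 in intestine (-0.44 ± 0.09, adjusted p = 0.00019) and Sult1c2 gave -1.07 in liver and -0.63 in intestine (-0.45 ± 0.12, adjusted p = 0.00302). With the mean of all probe sets per gene, the difference for Gstm3 was 0.32 (adjusted p = 0.0525), beside 0.85 with the probe set used here.

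**Figure D3:**
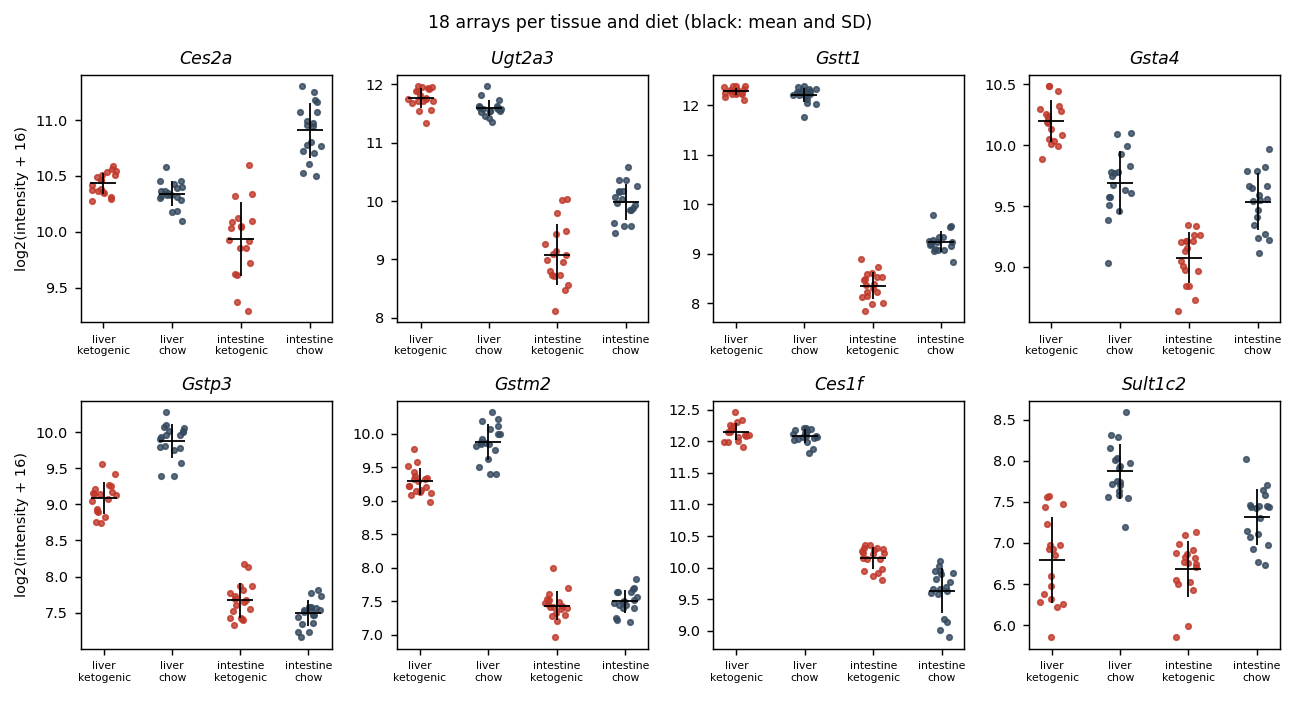
Level of 8 members on each array, log2(intensity + 16), in liver and intestine, ketogenic (red) left of chow (dark blue) in each tissue, with the mean and SD of 18 arrays in black. In intestine 17 of 18 ketogenic arrays of Ces2a and of Gstt1 and 14 of Ugt2a3 lie below every chow array, as do 16 of Gstp3 and 14 of Gstm2 in liver.

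Daily rhythm was measured with a 24 h cosine fitted per diet, whose amplitude is the distance from mean to peak on the log2 scale. In liver 21 of 48 members passed on the ketogenic diet and 13 on chow, where 36.6% and 17.5% of all genes did, and 11 passed on both (12.6% of all genes). On the ketogenic diet 16 of the 21 peaked between ZT8 and ZT18.5 and 5 before ZT8. On chow 8 of the 13 peaked before ZT8, 4 between ZT8 and ZT18.5 and 1 later. These windows differ in length, and peaks of all other rhythmic genes were not counted in them. Whether this difference between diets is particular to these members was therefore not tested. Without the 2 chow liver arrays whose Nr1d1 went against the label, 22 members passed on ketogenic diet and 11 on chow. Their peaks were not counted again. Leaving out chow ZT12 replicate 18 alone gave 7 on chow, and leaving out chow ZT0 replicate 23 or chow ZT4 replicate 6 gave 8. In the authors' deposited table, whose rhythm test was JTK, 16 of 59 members had a q-value under 0.05 in ketogenic liver (12.4% of its probe sets) and 1 in chow liver (2.82%). The BIO_CYCLE test in the authors' deposited table gave 2 members in ketogenic liver (0.54%) and 3 in chow liver (0.66%).

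Among members that passed, the largest amplitudes by family in ketogenic liver were those of Sult1c2 (0.67, peak at ZT6.9), Ces2c (0.42, ZT15.1), Gstm4 (0.35, ZT3.6) and Ugt2b37 (0.30, ZT13.7). Among those that passed on chow they were Gstt2 (0.44, ZT7.3), Sult1c2 (0.27, ZT8.2), Ugt2b37 (0.21, ZT3.2) and Ces1d (0.12, ZT16.1). Gstm4, a mu class enzyme, peaked early in the light phase, at ZT3.6 in ketogenic liver, at ZT3.8 in chow liver and at ZT2.9 in ketogenic intestine. It averaged 2393 ± 147 at ZT0 and 1612 ± 127 at ZT16 on the ketogenic diet in liver, and 2284 ± 352 and 1612 ± 271 at the same times on chow (SD, n = 3).

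Some Ugt2b genes passed a test of a diet difference in rhythm in liver, and none of these calls held under every setting tried. The test called 6 of 48 members in liver, where 1.19% of all genes were called. Of the 6, 5 were Ugt2b genes (Ugt2b1, Ugt2b5, Ugt2b35, Ugt2b37 and Ugt2b38). On the ketogenic diet they peaked between ZT9.7 and ZT15.5, and on chow the fitted peaks lay between ZT3.2 and ZT4.5. On chow, however, of the 7 Ugt2b genes only Ugt2b35 and Ugt2b37 passed the rhythm test itself, so the fitted chow peaks of Ugt2b1 (adjusted p = 0.281), Ugt2b5 (0.125) and Ugt2b38 (0.0783) belong to rhythms that were not called. All 7 Ugt2b genes read lower on the ketogenic diet at ZT0 and ZT4, by between 0.06 and 0.46, and higher at ZT12 and ZT16, by between 0.06 and 0.60. The diet difference averaged over the 6 times lay between -0.03 and 0.15 in these genes, and 5 of the 7 did not pass it.

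Ugt2b37 shows the pattern in single arrays. At ZT0 it read 1089, 807 and 1104 on ketogenic diet and 1275, 1303 and 1546 on chow, and at ZT16 it read 1703, 1575 and 1667 on ketogenic diet and 907, 1444 and 1161 on chow. The order of the diets was reversed between these times, with no overlap at either. At ZT4 one chow array, replicate 6, read 2041 beside 1240 and 1302, and without that array the test called 3 members rather than 6. The count was also 3 without chow ZT16 replicate 7, chow ZT16 replicate 9, ketogenic ZT16 replicate 5 or ketogenic ZT4 replicate 3, each left out alone. The adjusted p of the rhythm difference was 0.00591 for Ugt2b37, 0.0193 for Ugt2b38, 0.0318 for Ugt2b1, 0.0457 for Ugt2b35 and 0.0465 for Ugt2b5. Without the 2 chow arrays with another clock reading, Ugt2b37 (0.0119) and Ugt2b38 (0.0352) passed, and Ugt2b1 (0.056), Ugt2b5 (0.0677) and Ugt2b35 (0.0831) did not.

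The 5 calls are not independent of each other. Within groups, the deviations of the 7 Ugt2b genes from their group means had a median correlation of 0.79 over their 21 pairs and 36 liver arrays (0.28 to 0.93), and the genes share sequence, arrays and, for the probe sets, possibly signal. A diet by time point test that assumes no cosine left Ces1d alone (adjusted p = 0.0113), with Ugt2b37 at 0.0502. Ugt2b34 (adjusted p = 0.202) and Ugt2b36 (0.0985), whose promoters hold the same HNF1 letters shown above, did not pass the rhythm difference. Ugt2a3, which lies among the Ugt2b genes on chromosome 5, had a peak at ZT12.9 on ketogenic diet and did not pass either (0.258). An unadjusted p under 0.05 in the rhythm difference test was found for 20 of the 48 members in liver, beside 1989 of 12395 genes. By family these were 9 of 10 UGT, 3 of 6 SULT, 1 of 15 GST and 7 of 17 CES genes, so small p-values were not confined to Ugt2b and Ces1d.

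Ces1d was the remaining call in liver. It read 4061, 3598 and 4091 at ZT4 on ketogenic diet and 5076, 5138 and 4896 on chow, and at ZT12 7224, 6710 and 6632 on ketogenic diet and 5910, 5202 and 5759 on chow. The amplitude was 0.40 on ketogenic diet and 0.12 on chow, and the peak lay at ZT15.0 on ketogenic diet and at ZT16.1 on chow. The joint test of amplitude and phase gave an adjusted p of 0.00539. This call held under all 45 alternatives tried. No RefSeq promoter of Ces1d was in the table used here.

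**Figure D4:**
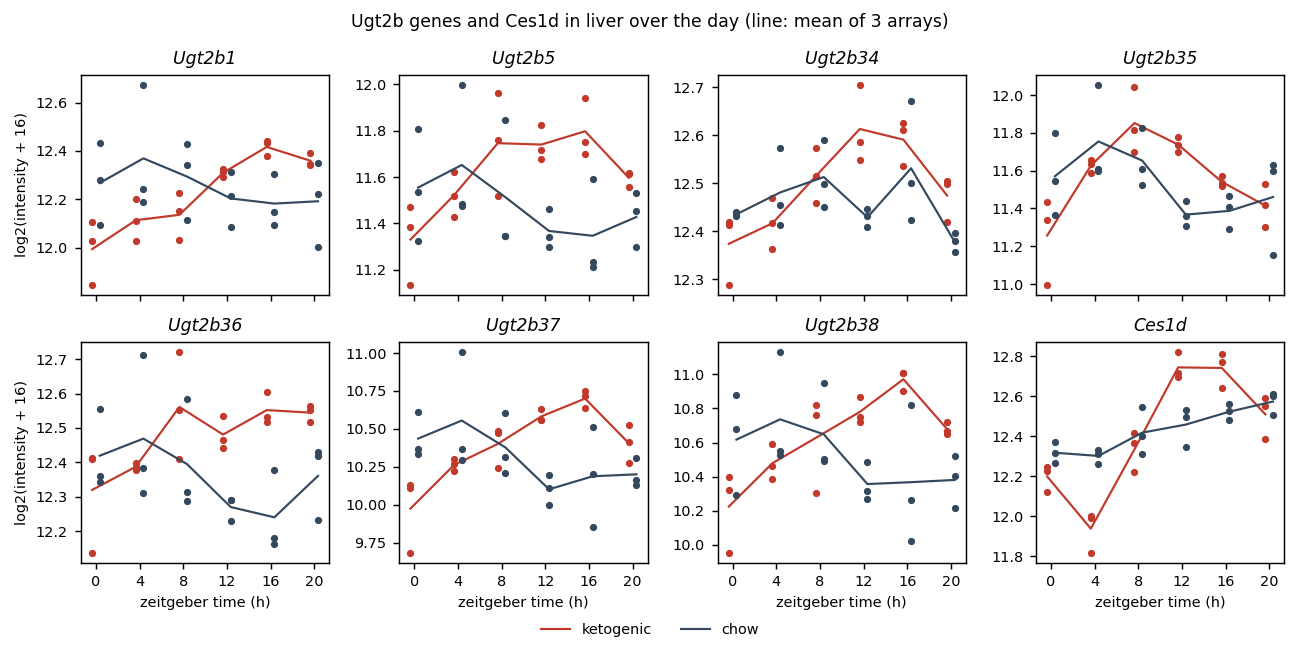
Liver level of the 7 Ugt2b genes and Ces1d over zeitgeber time, log2(intensity + 16), ketogenic in red and chow in dark blue, with points for single arrays and lines through means of 3. The Ugt2b lines cross between ZT4 and ZT12, and the Ces1d line of ketogenic liver swings from below chow at ZT4 to above it at ZT12.

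In intestine 9 of 38 members passed the rhythm test on the ketogenic diet and 7 on chow (14.7% and 8.94% of all genes), 6 of them on both (5.67%). Without chow ZT20 replicate 13 the chow count was 4. With each diet fitted alone, 6 passed on ketogenic diet and 10 on chow. Without the 3 ketogenic arrays that stood apart, the counts were 9 on ketogenic diet and 11 on chow. Which diet had more rhythmic members in intestine is therefore not settled. The test of the diet difference called 0 members with limma (0.0403% of all genes). An unadjusted p under 0.05 was found for 2 of the 38 members, beside 784 of 12395 genes. The diet by time point test also called 0. Ces1d had the largest amplitude of the members on both diets, 1.04 on ketogenic diet and 0.92 on chow, with peaks at ZT18.0 and ZT18.3. At ZT8 it read 31.1, 27.1 and 62.1 on ketogenic diet and 104, 103 and 160 on chow, and at ZT20 202, 276 and 196 on ketogenic diet and 466, 331 and 497 on chow. Its arrays did not overlap between diets at either time. Among members that passed, the largest amplitudes of the other families were those of Ugt2b36 (0.35, ZT11.8), Gstm4 (0.35, ZT2.9) and Sult1c2 (0.31, ZT10.5) on ketogenic diet, and Ugt2b5 (0.45, ZT10.2), Sult2b1 (0.22, ZT11.8) and Gstp1 (0.17, ZT12.6) on chow. Ugt2b peaks in intestine lay between ZT7.7 and ZT11.8 on either diet where the gene passed.

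Genes that supply, carry or regulate these reactions were taken as lists, to be read beside the 19.2% of all genes that rose and 29.1% that fell in liver, and the 19.6% that rose and 31.3% that fell in intestine. Of the enzymes and carriers that supply UDP-sugars and PAPS, 3 of 9 rose and 4 fell in liver, and 5 of 8 fell in intestine. Ugdh, which makes UDP-glucuronic acid, rose by 0.44 in liver and fell by 0.29 in intestine. Ugp2, which makes UDP-glucose, fell by 0.50 in liver, and Papss1, which makes PAPS, fell by 0.30 in intestine. Glutathione synthesis and recycling genes rose in 3 of 8 cases in liver (Cth 0.44, Gsr 0.18, Gss 0.16) and fell in 4 of 8 in intestine with 1 rise, among them both subunits of glutamate-cysteine ligase, Gclc (-0.32) and Gclm (-0.38). Microsomal glutathione transferases and other glutathione transferase-related genes rose in 4 of 4 cases in liver, led by Mgst3 (0.53), and in 1 of 5 in intestine (Mgst1, 0.35).

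Carriers that move conjugates out of or into cells rose in 4 of 10 cases and fell in 2 in liver, where the basolateral exporter Abcc3 rose by 0.98. In intestine 2 of 8 rose and 3 fell. Abcc3 rose by 0.56 there, while the apical exporter Abcc2 fell by 0.44. Of receptors and regulators of drug metabolism, 5 of 16 rose and 4 fell in liver, where the falls are near the share of all genes, with Nr1i3, the receptor CAR, at 0.51, and 1 of 14 rose and 7 fell in intestine. Marker targets of CAR, PXR and AHR rose in 3 of 7 cases and fell in 1 in liver. The largest rise in this list there, 4.95, was the largest of all genes tested in liver. In intestine 1 of 7 rose and 5 fell, with Cyp2c55 at -2.07 and Cyp3a25 at -1.13. Marker targets of NRF2 rose in 3 and fell in 4 of 11 in liver, and rose in 2 and fell in 6 of 12 in intestine.

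The PAR bZIP factors and the clock genes linked to them fell in 2 of 9 cases in liver and in 5 of 8 in intestine, where Dbp fell by 0.74, and rose in none of those tested. Enzymes that remove conjugates fell in 3 of 4 cases in liver, where Gusb, the beta-glucuronidase, fell by 0.52. In intestine 2 of 4 fell and Gusb rose by 0.25. Other serine hydrolases and lipases rose in 7 of 14 cases and fell in 1 in liver, and rose in 3 of 12 and fell in 2 in intestine, with the monoacylglycerol lipase Mgll at 1.27. Of 9 male-biased liver genes tested 2 rose and 3 fell, and of 4 female-biased liver genes 3 rose. The largest of these rises, 4.95, is also that of the CAR, PXR and AHR targets, so these lists are not separate observations.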

How the data were processed

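Expression was measured on 72 one-colour Affymetrix gene arrays. The deposited value table holds linear intensity per probe set, which the authors made with Affymetrix Expression Console 1.1.1 and PLIER, per the submitters' processing notes; background and normalization settings and the genome build are not given in the sources used here. The authors' deposited workbooks also hold p-values and q-values of their JTK, BIO_CYCLE and Cyber-T tests and a phase lag in hours.

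Probe sets with 1 symbol were kept, 3 members being named from the workbook, and the highest-mean probe set stood for each gene. Values were taken as log2(intensity + 16). Tests used limma 3.58.1 in R 4.3.3 with Benjamini-Hochberg adjustment over all genes tested at 0.05, a filter at the 40th percentile per tissue, and a 24 h cosine for rhythm; statmod 1.5.0 gave the block correlation. Python 3.11.15 with pandas 2.3.3, numpy 2.4.6, biopython 1.88 and matplotlib 3.10.9 did the rest. On simulated data the liver diet test recovered 92.5% of 67 genes changed 1.25-fold, and the liver rhythm difference test recovered 38.8% of 67 genes changed by an amplitude of 0.2. The number of arrays limits the precision, and the labels name no batch.

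The members, gene lists and named genes were chosen with earlier results of these data known. Named genes were, per tissue and family, up to 3 called members with the largest rise and 3 with the largest fall, the largest called amplitude per diet and the 3 highest mean levels, with every member called for a rhythm difference, the 4 lowest adjusted p per direction between tissues, and up to 3 called genes per list and tissue; other genes named were chosen after their values were seen. Whether the same number in the titles of a liver and an intestine array marks the same animal is not settled. Within a diet, numbers shared by liver and intestine arrays stood at the same ZT. Deviations of liver and intestine arrays with 1 number had a median correlation of 0.024 over 22 pairs (-0.328 to 0.219), beside -0.008 over 86 other pairs. Deviations in different tissues of the same animal need not correlate, so these values cannot exclude pairing. Settings tried were the filter, pseudocount, normalization, probe set rule, variance model, rhythm test, fold minimum and arrays left out.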

Additional observations from a re-analysis of the deposited data

Results flagged for a closer look

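The diet effect differed between liver and intestine, by a test of the difference itself, in 24 of the 36 members measurable in both tissues (limma, Benjamini-Hochberg adjusted p under 0.05), where 31.7% of 10811 genes were called. The values that follow are the liver diet difference minus the intestine diet difference, each ketogenic minus chow, on the log2(intensity + 16) scale. On the side where the liver difference was higher stood Ces2a at 1.06, Gstt1 at 0.96, Gsta4 at 0.97 and Ces1d at 1.09. On the side where the intestine difference was higher stood Gstp3 at -0.96, Gstm2 at -0.52, Ces1f at -0.44 and Sult1c2 at -0.45. No cause was tested.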

How the results depend on the processing

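No called member result changed sign under any alternative tried, while some values near 0 that were not called did. The second probe set of Gstm3, which gave the opposite order of the tissues, was not tried alone. Of the liver diet calls, 27 of 28 held throughout, as did 22 of 26 in intestine (Gstp1 was lost in 17 of 45 settings, Ces2c in 15, and Ces5a and Gstm7 in 1 each), 23 of 24 between tissues and 1 of 6 rhythm differences in liver (Ces1d). Asking for at least 1.5-fold left 3 higher and 3 lower in liver, and 0 higher and 7 lower in intestine. Without the filter, 8 members were rhythmic in chow liver and 3 differed in rhythm. A 60th percentile filter left 3 higher and 5 rhythmic on ketogenic diet in intestine. Quantile normalization left 3 rhythm differences in liver, and median centring 7 rhythmic members in chow liver. Testing any time difference gave 13 in ketogenic liver, 5 in chow liver and 3 in chow intestine. Each diet fitted alone gave 28 in ketogenic liver, 6 in chow liver, 6 in ketogenic intestine and 10 in chow intestine. The diet by time point test gave 1 rhythm difference in liver. Only genes past the filter in both tissues left 27 higher in liver than intestine, fewer genes being tested. Without the 2 chow liver arrays with another clock reading 3 rhythm differences remained in number, and without the 3 ketogenic intestine arrays that stood apart 11 members were rhythmic in chow intestine. The cause of these shifts was otherwise not tested.

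Leaving out each array in turn gave 17 to 18 higher and 10 to 11 lower in liver, 18 to 23 rhythmic in ketogenic liver, 7 to 14 in chow liver and 3 to 9 rhythm differences. In intestine it gave 4 to 6 higher, 20 to 23 lower, 6 to 10 rhythmic on ketogenic diet, 4 to 10 on chow and 0 rhythm differences. Between tissues it gave 24 to 25 diet differences, 44 to 45 members higher in liver and 11 to 12 higher in intestine. With the title number as a replicate block, 24 diet differences between tissues, 44 members higher in liver and 11 higher in intestine were called, the same counts as without it. Within a tissue and diet each number occurs once, so tests within a tissue could not be fitted with that block.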
